A study of Homo sapiens with 8 samples.

Results

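Messenger RNAs with very long 3′ untranslated regions (3′ UTRs) were described here across the 4 groups of an RNA-seq series on OVCAR3 cells. Each count table held 20165 rows, 1 row for each group of transcripts counted together, with reads given separately for the coding sequence and the 3′ UTR. A row was taken when its 3′ UTR was at least 5000 bases long, it had a coding sequence, and its exons held a mean of at least 100 reads over the 8 libraries. Of the 20165 rows, 1117 had such a 3′ UTR and a coding sequence, and 901 of these also had the reads. The 3181 rows with the same read minimum and a 3′ UTR of 300 to 1000 bases served as the reference. No fold change entered the choice.

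The 3′ UTR is the stretch of a messenger RNA between the stop codon and the poly(A) tail. It carries binding sites for microRNAs and for RNA-binding proteins such as the Pumilio and AU-rich element binding proteins, and through them it affects how long the RNA lasts, where it goes and how well it is translated. Many genes have several polyadenylation signals, so that one gene can make RNAs with a short or a long 3′ UTR. Long 3′ UTRs are common among regulators such as transcription factors, signaling proteins and ubiquitin ligases.

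OVCAR3 is an established human ovarian cancer cell line. The siControl and siTARG1 cells were transfected for 48 h with 30 nM of a control siRNA or of an siRNA to *OARD1*, the gene for TARG1, a hydrolase that removes mono(ADP-ribose) from proteins. The methods list more than 1 siRNA for TARG1, and the labels do not say which one these libraries received. RACK1-WT and RACK1-Mut cells carried a doxycycline-inducible knockdown of endogenous RACK1, a scaffold protein of the small ribosomal subunit. In the same cells either wild-type RACK1 or RACK1 mutated at its 3 ADP-ribosylation sites was re-expressed, with 1 µg/ml doxycycline for 48 h in both groups. These were lines selected after viral transduction and not described as single clones. Each group had 2 libraries of ribosomal RNA-depleted total RNA from the input lysates of a ribosome profiling experiment. The methods describe sequencing experiments as repeated on independent biological samples, but the labels do not tie the 2 libraries of a group to separate cultures, so p-values measured only the spread between these samples.

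The libraries held 30989049 to 42668783 exon reads over all rows, and the long 3′ UTRs took 12.3% to 14.4% of all 3′ UTR reads. Levels are given as CPM, the reads of a row in one region scaled to 1000000 reads of that region in the library. *OARD1* exon reads were 48.5 and 52.0 CPM in siControl and 3.11 and 3.98 in siTARG1, a log2 fold change of −3.83 (edgeR adjusted p = 1.2e-10), and 39.3 to 46.2 in the RACK1 libraries. *RACK1* exon reads, which count endogenous and re-expressed RNA together, were 4241 to 4664 CPM in the siRNA libraries, 1762 and 1898 in RACK1-WT and 1397 and 1454 in RACK1-Mut. The epithelial and ovarian markers examined (*PAX8*, *WT1*, *MUC16*, *MSLN*, *EPCAM*, *KRT7*, *KRT8*, *KRT18* and *CDH1*) were detected in every library, whereas *PTPRC*, *CD3E*, *VWF*, *COL1A1* and *DCN*, which mark blood, endothelial and stromal cells, lay between 0 and 7.47 CPM. On the log2 scale *KRT8* (−1.08), *KRT18* (−1.31), *WT1* (−0.74) and *MUC16* (−0.70) were lower and *KRT7* (0.44) and *CDH1* (1.497) higher in siTARG1, *PAX8*, *MSLN* and *EPCAM* did not pass, and their part in the results was not tested. In such bulk samples fewer cells of a kind and less RNA per cell cannot be told apart.

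The chosen 3′ UTRs ran from 5001 to 32870 bases, with a median of 6525, and made up a median of 77.2% of the exon length of their rows. There were 336 rows from 5000 to under 6000 bases, 305 to under 8000, 143 to under 10000, 91 to under 15000 and 26 longer still. Median coding length was 1614 bases, against 1338 in the reference. In 848 rows the annotated 3′ UTR lay in a single exon, and in 756 of the 891 rows with an annotated transcript its length was within 10% of that in the table. In all, 50 rows joined several genes, and for these the reads cannot be given to 1 of them. In 208 rows (23.1%) exons of another gene lay on the opposite strand of the 3′ UTR. The libraries were strand-specific, but the counting was not stated to use strand. Closest to the length limit on the inside were *PLXNA2* (5001 bases), *MRPS23* (5002) and *SHISA9* (5004), and just outside it were the joined row *GCOM1/MYZAP/POLR2M* (4991), *GSPT1* (4991) and *ERLIN2* (4986). Closest to the read limit were *SCIN* (mean 101.1 exon reads), *NPFFR1* (102.6) and *PLEKHG4B* (105.5) inside, and *DDR2* (99.5), *PDE11A* (94.95) and *CAMK4* (92.25) outside.

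The sequences below were read from the longest matched transcript of 891 of the 901 rows in the GENCODE annotation on GRCh37, on the strand of the transcript. They are shown because the 3′ UTRs with the largest losses in siTARG1 shared the 7-base word TGAACAT, which an earlier scan of these data had named. Capitals mark the word. *NUCKS1* held it 4 times and *USP46* held it 2 times, with starts 34 bases apart.
NUCKS1, chr1:205685627-205685653, minus strand: atacaggactTGAACATaaatagcagt
NUCKS1, chr1:205684189-205684215, minus strand: tttttatctgTGAACATtcagataagt
NUCKS1, chr1:205683151-205683177, minus strand: ttgtttaccaTGAACATgttgcagcaa
NUCKS1, chr1:205682714-205682740, minus strand: ggggttgaagTGAACATgattttgttg
USP46, chr4:53462419-53462445, minus strand: taataaactgTGAACATatttttgtta
USP46, chr4:53462385-53462411, minus strand: catccactgaTGAACATgcaaactttg
ADAMTS5, chr21:28296134-28296160, minus strand: tgggagttatTGAACATcccctgggct
ERBB4, chr2:212248164-212248190, minus strand: ttacctaactTGAACATtagagggaaa

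A second set shows the last polyadenylation signal, the hexamer that directs cleavage, within 50 bases of the annotated 3′ end. It covers 4 of the rows named in the results. *AQR*, a further row named below, is not shown. Capitals mark the hexamer, AATAAA or its common variant ATTAAA.
NUCKS1, chr1:205681960-205681985, minus strand: aatcatatatAATAAAagataatgtt
ITSN1, chr21:35272136-35272161, plus strand: atagttcatgAATAAAaggagaaaag
DCP2, chr5:112357858-112357883, plus strand: tctctgtataAATAAAtggagttttt
SETD7, chr4:140427197-140427222, minus strand: caatgcaagtATTAAAcaaaatatac

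One of these hexamers stood within 50 bases of the annotated end in 780 of the 891 long 3′ UTRs (87.5%) and in 77.7% of the 3136 reference 3′ UTRs with sequence. The long 3′ UTRs held AATAAA a median of 6 times and the reference 3′ UTRs a median of 1 time. Per kilobase the order was the other way, with 0.979 AATAAA in the long 3′ UTRs and 1.62 in the reference. The AU-rich word TATTTAT occurred in 77.7% of the long 3′ UTRs (0.305 per kb) and in 20.6% of the reference (0.357 per kb). The Pumilio word TGTANATA, with N any base, occurred in 71.4% (0.219 per kb) and in 16.5% (0.257 per kb). TGAACAT occurred in 47.4% (0.101 per kb) and in 7.08% (0.0921 per kb). Only the strand of the transcript was searched, and overlapping matches were counted. Median GC content was 39.5% in the long 3′ UTRs and 45.7% in the reference.

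Reads covered the long 3′ UTRs thinly for their length. The density ratio, meaning 3′ UTR reads per kilobase over coding-sequence reads per kilobase of the same row, was below 1 in 858 of 901 long rows (95.2%) and below 0.5 in 620 (68.8%), against 66.9% and 20.7% of the reference rows. It fell along the length classes, from a median of 0.389 at 5000 to under 6000 bases, through 0.372, 0.28 and 0.246, to 0.0837 at 15000 bases or more. The 26 rows of that last class had the lowest density. A row's 3′ UTR length is that of its annotation, and the tables do not show where within a 3′ UTR its reads lay.

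The rows with the longest 3′ UTRs were *SMAD2*, a transducer of TGF-β signals (32870 bases), *GNAI3*, a G protein subunit (25999), *GRIN2B*, an NMDA receptor subunit (25446), and *RPS6KA5*, the kinase MSK1 (24190). They were followed by *ARIH1*, a ubiquitin ligase (19693), *SRGAP1*, a GTPase-activating protein (19549), *FGF13* (18119) and *SLITRK5* (18007). The *SMAD2* density ratio was 0.0313 and 0.0296 in siControl, 0.0308 and 0.0347 in siTARG1, 0.0454 and 0.0420 in RACK1-WT and 0.0441 and 0.0466 in RACK1-Mut. For *GNAI3* the annotated transcript read here has a 3′ UTR of 7873 bases, so its place among the longest rests on the length in the table. *SRGAP1* sat higher than *SMAD2*, between 0.155 and 0.181 over the 8 libraries.

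The rows with the most 3′ UTR reads per kilobase, in CPM per kilobase averaged over the 8 libraries, were *NUCKS1*, a chromatin-associated phosphoprotein (535.1), *SLC38A1*, an amino acid transporter (348.2), *CDH6*, a cadherin (256.8), and *RAB11FIP4*, a Rab11 effector (217.7). Next were *ITGB8*, an integrin subunit (217.7), *SERBP1*, an mRNA-binding protein (191.3), *NAA50*, an N-terminal acetyltransferase (189.0), and *MLEC*, a lectin of the endoplasmic reticulum (180.6). *SERBP1*, *NAA50* and *MLEC* lay close together, and the siControl libraries of *SERBP1* alone stood at 880.7 and 1091 CPM before division by length.

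The comparison of siTARG1 with siControl asked how RNA levels differed after transfection of the siRNA to TARG1. In siTARG1, 214 of the 901 long 3′ UTRs (23.8%) gained reads and 190 (21.1%) lost reads at an adjusted p under 0.05, against 14.6% higher and 14.2% lower among all 12520 rows tested. CPM values use TMM scaling within the region, and rows were tested with edgeR's quasi-likelihood method over every row. In the reference set 10.4% were higher and 12.9% were lower of 3153 tested. The median log2 fold change was 0.06 in the long rows, −0.01 in the reference and 0.01 over all rows. More than 2-fold, 42 of the 901 long 3′ UTRs were higher and 55 lower, against 444 and 492 of all 12520 rows. With only the 4 siRNA libraries in the fit, 14.7% of the long 3′ UTRs were called higher and 15.7% lower. The shares of all rows and of reference rows in that fit are not given here. The shares above come from the fit of 8 libraries, so these 2 values cannot be set against them.

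Long 3′ UTRs also held more reads, a median of 998.3 per library against 277.7 in the reference, and counts of calls move with reads. Among rows with a mean of 500 to 2000 3′ UTR reads, a band chosen after seeing the data, 44.9% of 405 long rows and 27.9% of 849 reference rows were called. At 100 to 500 reads the shares were 37.6% and 22.9%, and at 2000 reads or more they were 55.7% and 33.2%. Below 100 reads the order was the other way, with 13.5% of 37 long rows and 15.3% of 714 reference rows called. The difference in share between the 2 sets was not tested, since rows are not replicates. Within the long rows, the share called did not climb steadily with length. It was 41.4% at 5000 to under 6000 bases, 46.9% to under 8000, 50.3% to under 10000, 42.9% to under 15000 and 42.3% of the 26 longest.

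Coding sequences of the same rows moved too. Of 898 long rows with enough coding reads, 250 (27.8%) were higher and 226 (25.2%) were lower in siTARG1, against 23.3% and 21.5% of all 13130 rows tested. The reference rows stood at 23.6% and 22.6%.

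**Figure D1:**
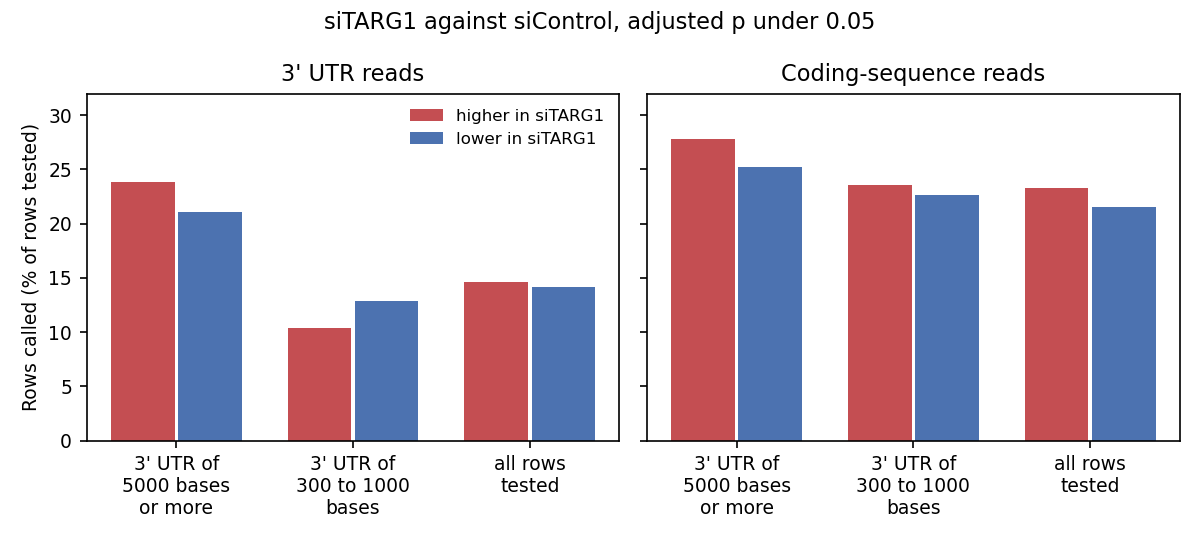
Bars give the percent of rows tested that were called higher (red) or lower (blue) in siTARG1 than in siControl, for 3′ UTR reads (left) and coding-sequence reads (right), with edgeR at an adjusted p under 0.05. In the 3′ UTR the rows of 5000 bases or more reach 23.8% higher and 21.1% lower, against 14.6% and 14.2% of all rows.

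Both regions of a row mostly moved together. Of the 898 rows tested in both, 332 were called in both regions with the same direction, 166 of them higher and 166 lower, and 0 were called in opposite directions. A further 69 were called in the 3′ UTR alone and 144 in the coding sequence alone. The sign of the fold change was the same in 785 rows (87.4%). Across the 898 rows the fold changes of both regions had a Pearson r of 0.92. This is a description over rows, which share the same libraries. The same values for reference rows and all rows are not given here. Moving together is thus not shown to be particular to long 3′ UTRs.

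**Figure D2:**
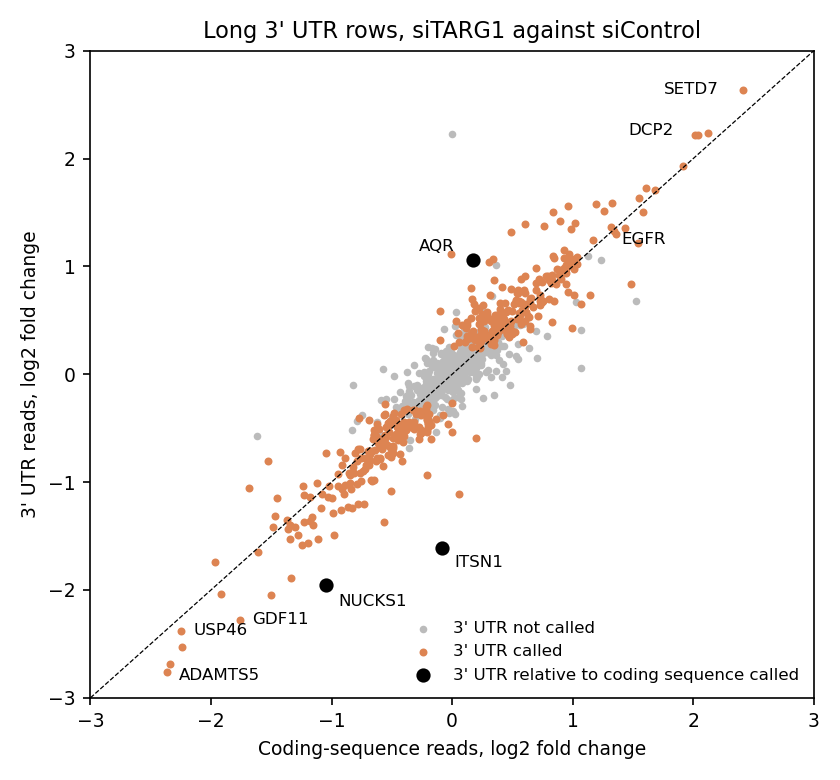
Each point is 1 of 898 long 3′ UTR rows, with the log2 fold change of its coding-sequence reads on the x axis and of its 3′ UTR reads on the y axis, siTARG1 against siControl. Points lie along the dashed line of equal change, and the 3 black points, *NUCKS1*, *ITSN1* and *AQR*, are those whose 3′ UTR changed relative to the coding sequence at an adjusted p under 0.05.

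The 10 called rows with the lowest 3′ UTR fold changes are named first. They were taken from rows whose siTARG1 libraries stood below both siControl libraries, so that separation is no result. All 404 called long 3′ UTRs had libraries that did not overlap. The same share over all called rows is not given here, so this shows nothing particular to long 3′ UTRs. The 10 rows held enzymes, signaling proteins and transporters. *USP46*, a deubiquitinase, had 260.4 and 258.8 CPM in siControl and 47.1 and 52.7 in siTARG1, while the RACK1 libraries stood between 215.1 and 225.7. Its log2 fold change was −2.38 ± 0.09 (SE, edgeR adjusted p = 3.1e-07), and its coding sequence changed by −2.25.

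*GDF11*, a secreted ligand of the TGF-β family, fell from 419.8 and 445.9 to 84.9 and 93.8, a log2 change of −2.28 ± 0.10 (SE). *ACVR2B*, a receptor for such ligands, fell from 235.2 and 228.8 to 55.5 and 56.5, a change of −2.05 ± 0.09. Both ligand and receptor thus had 3′ UTR levels in siTARG1 well below the range of the RACK1 libraries, 272 to 316 for *GDF11* and 123 to 134 for *ACVR2B*. *ERBB4*, a receptor tyrosine kinase, fell from 169.6 and 199.2 to 44.3 and 55.4, a change of −1.89 ± 0.13. Among membrane carriers, *SLC26A2*, a sulfate transporter, fell from 272 and 265 to 62.1 and 68.6, a change of −2.04 ± 0.09.

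*SLC16A10*, a transporter of aromatic amino acids, fell from 41.5 and 41.3 to 6.45 and 6.44, a log2 change of −2.69 ± 0.13. *ADAMTS5*, a protease that cleaves aggrecan, fell from 23.3 and 23.5 to 2.98 and 3.93, a change of −2.76 ± 0.18. *HHIP*, which binds and restrains hedgehog ligands, fell from 18.6 and 22.8 to 3.20 and 3.93, a change of −2.53 ± 0.21. These 3 were lower in the RACK1 libraries than in siControl as well, between 4.60 and 6.996 for *ADAMTS5*, 5.73 and 7.47 for *SLC16A10* and 0.363 and 0.857 for *HHIP*. The siRNA and RACK1 experiments used different cells and were not compared by a test.

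The gene *CPM*, which encodes a carboxypeptidase of the cell surface and is unrelated to the unit, fell from 65.9 and 71.9 to 19.4 and 21.9, a log2 change of −1.74 ± 0.11, and stood at 310 to 351 in the RACK1 libraries. *NUCKS1* completed the 10, from 2406 and 2574 in siControl to 593.7 and 692.3 in siTARG1, a change of −1.95 ± 0.09. For all 10, the adjusted p was at most 2.7e-05, and the coding sequence was called lower as well.

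At the other end, among called rows *SETD7*, a lysine methyltransferase, rose most. Its 3′ UTR had 96.6 and 104 CPM in siControl, 602 and 646 in siTARG1, 543 and 527 in RACK1-WT and 499 and 520 in RACK1-Mut. The log2 fold change in siTARG1 was 2.64 ± 0.09 (SE, edgeR adjusted p = 3.1e-07), with 2.42 in the coding sequence. *DCP2*, the enzyme that removes the 5′ cap of messenger RNAs, rose from 218.4 and 219.6 to 1005 and 1034, a change of 2.22 ± 0.08. The RACK1 libraries lay between, at 500.6 to 566.7.

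*GFRA1*, a receptor for GDNF, rose from 4.65 and 4.05 to 20.8 and 20.6, a log2 change of 2.24 ± 0.19. *NXPE3* rose from 5.94 and 9.35 to 31.2 and 38.9, a change of 2.22 ± 0.21. *DENND1B*, an exchange factor for Rab proteins, rose from 11.1 and 15.1 to 36.9 and 48.2, a change of 1.71 ± 0.19. *CHST3*, a chondroitin sulfotransferase, rose from 16.2 and 13.8 to 53.1 and 46.4, a change of 1.72 ± 0.20. In all 4 the siTARG1 libraries stood above both siControl libraries, as the choice of rows required.

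*LRRC58* rose from 146 and 169 to 423 and 550, a log2 change of 1.63 ± 0.13, and *FAM241A* from 9.90 and 9.72 to 23.8 and 35.3, a change of 1.59 ± 0.19. The last 2 of the 10 were *PAQR3*, a Golgi membrane protein, at 1.93 ± 0.15, and *BRI3BP* at 1.58 ± 0.09. In these 2 rows 4488 and 1977 bases of the 3′ UTR lay under opposite-strand exons, so their 3′ UTR reads are less certain; their coding sequences changed by 1.92 and 1.19. All 10 had separate siControl and siTARG1 values, as the choice of rows required, and a coding sequence that was called higher.

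**Figure D3:**
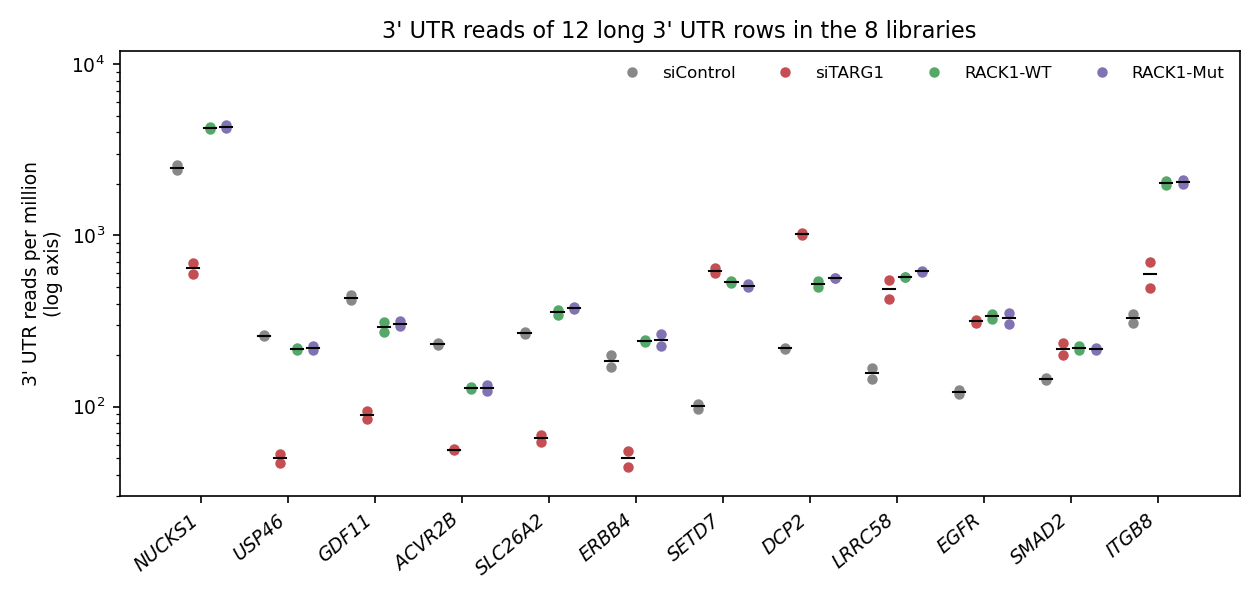
Points give the CPM of 3′ UTR reads, on a log axis, of 12 rows in the 2 libraries of each group, and black bars give group means. *NUCKS1*, *USP46*, *GDF11*, *ACVR2B*, *SLC26A2* and *ERBB4* are lowest in siTARG1, *SETD7*, *DCP2*, *LRRC58*, *EGFR*, *SMAD2* and *ITGB8* are lowest in siControl, and the RACK1-WT and RACK1-Mut points lie close together in all 12.

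The 3′ UTR relative to the coding sequence changed in few rows. In a fit of both regions with a level for each library, 3 of 898 long rows (0.334%) were called, 1 higher and 2 lower, against 0.0581% of all 12047 rows tested in either direction and 0 of 3149 reference rows. At an unadjusted p under 0.05 there were 113 long rows (12.6%), 82 reference rows (2.6%) and 4.72% of all rows. Long rows held more 3′ UTR reads, a median of 998.3 against 277.7 in the reference, and these unadjusted shares were not split by reads. DESeq2 called 12 long rows higher and 6 lower, 0 and 2 reference rows, and 20 and 15 of all rows. Those 18 included the 3 edgeR calls. Others among them, named after their values were seen, were *SUGT1*, a co-chaperone (1.12 in edgeR's fit), *GMPS*, an enzyme of guanine nucleotide synthesis (−0.73), *SDHC*, a subunit of succinate dehydrogenase (0.63), and *ELK4*, a transcription factor (−0.58).

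*NUCKS1* lost 3′ UTR reads beyond its coding loss. Its density ratio was 0.415 and 0.401 in siControl, 0.221 and 0.222 in siTARG1, 0.478 and 0.440 in RACK1-WT and 0.445 and 0.498 in RACK1-Mut. The relative log2 change in siTARG1 was −0.91 ± 0.10 (SE, edgeR adjusted p = 0.021), made of −1.95 in the 3′ UTR and −1.05 in the coding sequence. The siTARG1 values lay below those of all 6 other libraries.

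*ITSN1*, an endocytic scaffold protein with an 11561-base 3′ UTR, kept its coding reads, at 80.9 and 94.0 CPM in siControl and 80.2 and 84.8 in siTARG1. Its 3′ UTR reads were 23.96 and 25.14 in siControl and 9.09 and 6.95 in siTARG1. The density ratio was 0.0609 and 0.0569 in siControl, 0.0236 and 0.0178 in siTARG1 and 0.108 to 0.133 in the RACK1 libraries, and the relative change was −1.54 ± 0.19 (adjusted p = 0.037). The deposited 3′ UTR counts behind it were 295 and 242 against 119 and 92 reads.

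*AQR*, an RNA helicase of the spliceosome, went the other way. Its 3′ UTR had 22.9 and 20.9 CPM in siControl and 46.4 and 45.3 in siTARG1, while its coding sequence had 156 and 146 against 163 and 179. The density ratio was 0.0600 and 0.0606 in siControl, 0.118 and 0.110 in siTARG1 and 0.106 to 0.126 in the RACK1 libraries, and the relative change was 0.89 ± 0.11 (adjusted p = 0.037). Here siControl, not siTARG1, stood apart from the other 6 libraries.

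These 3 calls depended on the settings. Over 15 other fits *NUCKS1* was called in 9, and *ITSN1* and *AQR* in 6 each. Fits of only the 4 siRNA libraries, or with siControl replicate 1 or any single RACK1 library left out, called 0 long rows. Their relative changes kept their sign without each library in turn, from −0.96 to −0.86 for *NUCKS1*, −1.79 to −1.31 for *ITSN1* and 0.80 to 0.97 for *AQR*.

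**Figure D4:**
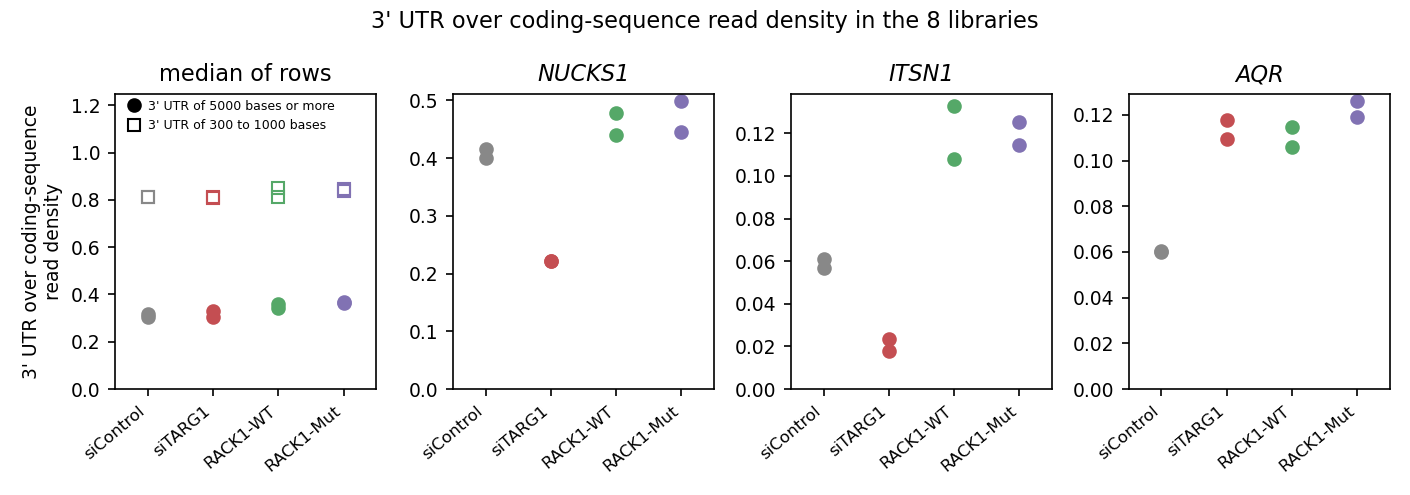
The left panel gives, for each library, the median density ratio of the long rows (filled circles) and of the reference rows (open squares), and the other panels give the density ratio of 3 named rows, with 2 points for each group. The long-row medians lie between 0.304 and 0.366 and the reference medians between 0.809 and 0.852. The 3 named rows differ between siControl and siTARG1 with no overlap, as their choice required.

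Over all 901 long rows, the medians of the density ratio in siControl and siTARG1 overlapped. The median was 0.304 and 0.319 in siControl, 0.305 and 0.329 in siTARG1, 0.360 and 0.342 in RACK1-WT and 0.366 and 0.363 in RACK1-Mut. The reference medians were 0.812 and 0.810 in siControl, 0.809 and 0.811 in siTARG1, 0.852 and 0.813 in RACK1-WT and 0.846 and 0.837 in RACK1-Mut. On the log2 scale, long minus reference rows, siTARG1 was 0.03 above siControl (exact permutation p = 0.667, two-sided). RACK1-Mut was 0.04 above RACK1-WT (exact permutation p = 0.33, two-sided, the smallest that 2 against 2 libraries allow). No result of this test could pass 0.05.

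The word TGAACAT divided the long rows in the siTARG1 comparison. Of the 422 rows that held it, 130 (30.8%) fell and 66 (15.6%) rose, and of the 469 without it 57 (12.2%) fell and 146 (31.1%) rose. The median 3′ UTR log2 fold change was −0.08 with the word and 0.15 without it. It was −0.04 in the 263 rows with 1 copy, −0.14 in the 115 with 2 and −0.22 in the 44 with 3 or more. These classes were not matched for 3′ UTR length. The word was chosen from this same contrast, so these counts are a description and carry no test. It was not compared with the TARG1 siRNAs, which the methods give by catalogue number without sequence, and loss of TARG1 and other effects of the siRNA cannot be told apart in this comparison.

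By library, the median of the rows with the word was −0.16 in siTARG1 replicate 1 and −0.02 in replicate 2, each against the siControl mean, and that of the rows without it was 0.13 and 0.17. The siControl libraries themselves stood at −0.04 and 0.04 with the word and at −0.01 and 0.01 without it. In the rows with the word, siTARG1 replicate 2 thus lay between the siControl libraries, and only replicate 1 lay below both. In both groups the 2 libraries differed by more in the rows with the word than in the others. Coding sequences showed the same split, with medians of −0.08 and 0.09. In the reference rows, 81 of 219 tested with the word (36.99%) fell and 5 (2.28%) rose, against 10.9% and 11.1% of 2890 without it.

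The place of the word went with the change. In 81 long rows the first copy lay within 1000 bases of the stop codon, and 36 of these (44.4%) fell and 8 (9.88%) rose, with a median of −0.29. In 255 rows it lay from 1000 to under 5000 bases away, with 28.6% lower, 17.3% higher and a median of −0.05. In the 86 rows whose first copy lay 5000 bases away or more, 24.4% were lower, 16.3% were higher and the median was 0.01. These shares are to be read against 21.1% lower and 23.8% higher of all long 3′ UTRs, and 14.2% and 14.6% of all rows. Among called rows, all 10 with the lowest fold changes held the word, and 5 of the 10 with the highest did. Of the long 3′ UTRs with sequence, 47.4% held it. Median 3′ UTR length was 6210 bases in rows without the word, and 7020, 6630 and 8480 in the classes by growing distance. The part of length in these differences was not tested. The word was chosen from this same contrast, so its presence in the lowest rows was built in, and all these counts are a description. Of the lowest 10, *ERBB4*, *ADAMTS5* and *CPM* had the first copy at bases 160, 222 and 364 of the 3′ UTR. In *SLC16A10*, *USP46*, *NUCKS1*, *GDF11* and *ACVR2B* it lay at bases 1095, 1371, 1765, 2526 and 3937, and in *SLC26A2* and *HHIP* at 5146 and 5784.

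**Figure D5:**
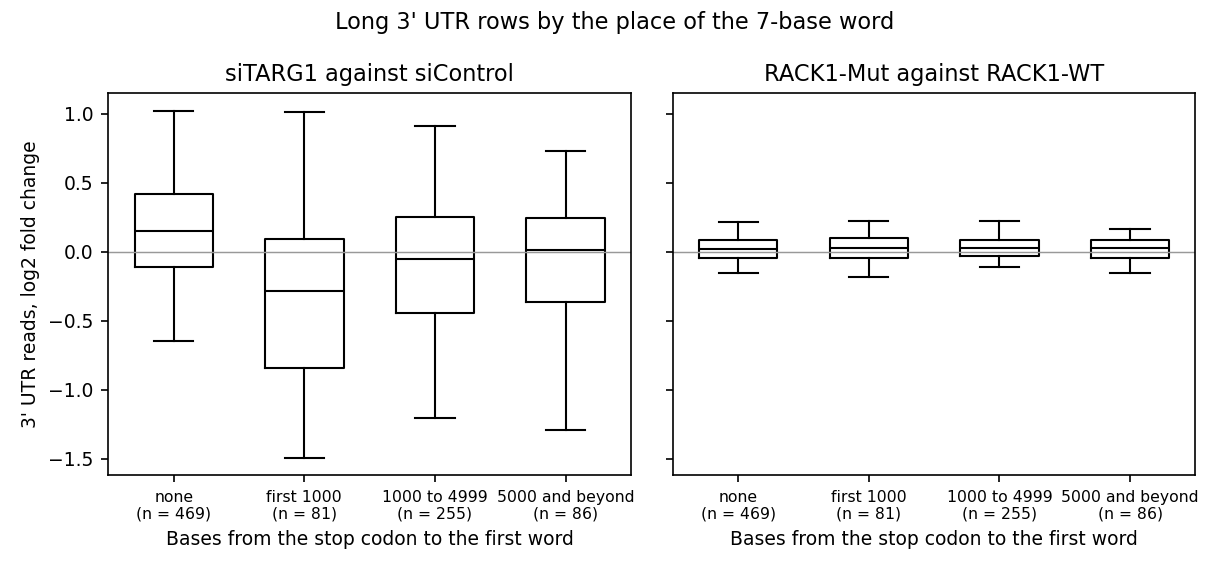
Boxes give the quartiles and median, and whiskers the 5th and 95th percentiles, of 3′ UTR log2 fold changes of the long rows, by the distance from the stop codon to the first copy of the 7-base word. In siTARG1 against siControl (left) the medians are 0.15 without the word and −0.29, −0.05 and 0.01 with growing distance, and in RACK1-Mut against RACK1-WT (right) they lie between 0.02 and 0.03 in all 4 classes.

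The other words did not divide the rows this way, but TGAACAT was chosen from this same contrast, so setting them beside it tests nothing. Medians in siTARG1 were 0.06 with and 0.04 without TATTTAT, and 0.06 with and 0.06 without TGTANATA. In RACK1-Mut against RACK1-WT the medians were 0.02 with and 0.02 without TGAACAT.

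By function, the long rows were counted in 11 gene lists in siTARG1, to be read against 23.8% higher and 21.1% lower of all long 3′ UTRs and 14.6% and 14.2% of all rows. These lists and their members were chosen with earlier results of these data known. Of 27 transcription factors, 10 rose, 6 fell and the median was 0.19. *KLF13* had 356 and 314 CPM in siControl and 450 and 387 in siTARG1 (adjusted p = 0.037), although its coding sequence was at 0 reads in all 4. *TEAD1*, at −0.14, and *TBL1XR1*, at −0.07, did not pass. Of 11 chromatin regulators, 3 rose and 3 fell. *CBX5*, the heterochromatin protein HP1α, fell from 1255 and 1297 to 636.4 and 659.6 (−0.98 ± 0.09).

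Of 40 zinc finger proteins, 4 rose and 11 fell, with a median of −0.12, and *ZNF121* (−0.59), *ZNF24* (0.79) and *ZNF451* (0.87) passed while *ZNF148* (0.53) did not. Over the exons of all 494 zinc finger rows tested, 61 rose and 136 fell, a median of −0.09, against 23.5% higher and 23.1% lower of all 14024 rows tested on their exons. Of 28 rows of the ubiquitin system, 8 rose and 9 fell. *RNF150* fell from 292 and 286 to 108 and 123, and *TRIM44* from 1057 and 1048 to 635.9 and 652.4, and *MARCHF6* fell by 0.65 on the log2 scale. The row that joins *UBE2V1* with *PEDS1* was at 0.04.

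Small GTPases and their regulators had 8 rows higher and 4 lower of 16, with the highest list median, 0.29. Among them *RAB22A* fell from 321 and 338 to 100 and 122, and *RAB11FIP4* from 1671 and 1484 to 821.2 and 717.1. *RAP1B*, at −0.13, did not pass. Of 21 solute carriers, pumps and channels, 5 rose and 5 fell. *SLC38A1* rose from 1361 and 1393 to 2198 and 2451 (0.76 ± 0.08), and *SLC5A3*, an inositol transporter, fell from 520 and 499 to 167 and 197 (−1.49 ± 0.10).

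Of 10 rows of receptor tyrosine kinase, RAS and PI3K signaling, 2 rose and 3 fell. *EGFR*, the epidermal growth factor receptor, had 125 and 119 CPM in siControl, 309 and 320 in siTARG1 and 305 to 351 in the RACK1 libraries. Its 3′ UTR changed by 1.36 ± 0.09 and its coding sequence by 1.32. The direction of *EGFR* was opposite to that of *ERBB4*, a receptor of the same family. Of 4 cell cycle and apoptosis rows, 2 rose, *MDM2* (0.33) and *XIAP* (0.36), while *MDM4* (−0.21) and *CDK6* (−0.19) did not pass.

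Of 16 rows for microRNA machinery and 3′ UTR binding proteins, 2 rose and 1 fell. *AGO2*, the Argonaute that cleaves targets, rose from 168 and 139 to 276 and 288 (0.88 ± 0.12), and *NUFIP2* rose by 0.42. *CNOT7*, a deadenylase with 2057 bases of its 3′ UTR under opposite-strand exons, was at −0.11, and *SYNCRIP* was at 0.10. In the 9 adhesion molecules and surface receptors 1 rose and 1 fell. These were *ITGB8*, from 308.2 and 349.4 to 493.9 and 695.4, and *CDH6*, from 2130 and 2446 to 1109 and 1387. *FZD4* (−0.14) and *LRP6* (0.25) did not pass.

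Only 2 factors of 3′ end processing had a long 3′ UTR themselves. *CPSF2*, a cleavage factor subunit, fell from 158 and 171 to 87.1 and 110 (−0.74 ± 0.11), and *WDR33*, which recognizes the polyadenylation signal and has 3746 bases of its 3′ UTR under opposite-strand exons, was at −0.11. Over the exons of all 20 rows of that list, 1 rose and 6 fell in siTARG1, against the same 23.5% and 23.1% of all rows. The row that rose was *PAPOLA*, a poly(A) polymerase, at 0.24 (edgeR adjusted p = 0.014). In RACK1-Mut against RACK1-WT 0 of the 20 were called by edgeR, and 0 had an unadjusted p under 0.05.

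Of the 8 rows with the longest 3′ UTRs, *SMAD2* and *GRIN2B* passed in siTARG1. *SMAD2* had 148 and 144 CPM in siControl and 200 and 236 in siTARG1, a log2 change of 0.58 ± 0.10 (edgeR adjusted p = 0.0015). *GRIN2B* had 5.86 and 6.58 against 10.9 and 11.9, a change of 0.88 ± 0.24 (adjusted p = 0.022). *GNAI3*, *ARIH1*, *SRGAP1*, *SLITRK5*, *FGF13* and *RPS6KA5* lay between −0.24 and 0.26 and did not pass.

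The comparison of RACK1-Mut with RACK1-WT asked how RNA levels differed between cells re-expressing mutated and wild-type RACK1. *RACK1* exon reads differed as well, at 1762 and 1898 CPM in RACK1-WT and 1397 and 1454 in RACK1-Mut. Loss of the ADP-ribosylation sites, *RACK1* level and cell line cannot be told apart here. With edgeR, 0 of 901 long 3′ UTRs were called, against 0% of all rows. In coding sequence 0 of 898 were called, against 0.0152% of all rows, and 0 of 898 were called for the 3′ UTR relative to the coding sequence, against 0% of all rows. At an unadjusted p under 0.05 there were 13, 30 and 8 long rows (1.44%, 3.34% and 0.891%), against 2.28%, 4.8% and 1.43% of all rows. DESeq2 called 0 long rows in all 3 measures, and over all rows it called 13 coding sequences lower. Median log2 fold changes were 0.02, 0.01 and 0.02.

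The spread of the 3′ UTR fold changes was narrow, with quartiles of −0.04 and 0.08, against −0.29 and 0.35 in siTARG1. The small positive median of the 3′ UTRs rested on 1 library, since leaving out replicate 2 of RACK1-Mut turned it to −0.01 and leaving out replicate 1 raised it to 0.06.

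The 4 long rows with the smallest unadjusted p in the 3′ UTR were *CADM1*, a cell adhesion molecule, *GRAMD1B*, a sterol transporter, *CLN8*, a protein of the endoplasmic reticulum, and *PTCHD1*, each with an adjusted p of 1. *CADM1* had 10.3 and 9.94 CPM in RACK1-WT and 19.3 and 16.9 in RACK1-Mut, a log2 change of 0.84 ± 0.18 (edgeR adjusted p = 1). It was at 0 in 3 of the 4 siRNA libraries and at 0.0764 in the fourth. *GRAMD1B* had 6.60 and 5.82 against 4.07 and 4.40, a change of −0.55 ± 0.17.

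*CLN8* had 71.3 and 76.4 CPM in RACK1-WT and 95.5 and 87.8 in RACK1-Mut, a change of 0.31 ± 0.10, and *PTCHD1* had 9.16 and 9.09 against 12.3 and 12.6, a change of 0.44 ± 0.15. The groups did not overlap in these 4 rows, which were picked for their p. Relative to the coding sequence the smallest p belonged to *PTPRB*, *PLEKHG4B*, *FAM98B* and *IRAK3*, all with an adjusted p of 1. In *PLEKHG4B* the RACK1-Mut libraries had 1 coding read each, so its ratio has no precision. For *FAM98B* the density ratio was 0.223 and 0.222 in RACK1-WT and 0.302 and 0.301 in RACK1-Mut, a relative change of 0.40 ± 0.15. Rows with large changes in siTARG1 had small values here, with *SETD7* at −0.07, *DCP2* at 0.11, *USP46* at 0.02, *GDF11* at 0.06 and *NUCKS1* at 0.03.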

How the data were processed

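RNA-seq count tables of 8 libraries were used, with samples grouped by the GEO labels. The submitters' processing notes and the methods say that the authors removed ribosomal RNA reads with Bowtie 1.1.2, aligned the rest to GRCh37 with TopHat2 2.1.1 (up to 64 hits) and counted alignments of 25 to 51 bases by their centers with Plastid over GENCODE 24 positions, so reads of near-identical genes may be shared. The deposited values are estimated counts that need not be whole, with RPKM values that the authors computed from them and that were used for no test. Here counts were rounded and tested with edgeR 4.0.16 (TMM, filterByExpr, quasi-likelihood, 4 groups, Benjamini-Hochberg over all rows) in R 4.3.3, for 3′ UTR reads, coding reads, and both together in a 16-column fit. The SE given with edgeR values was the absolute log2 fold change divided by the square root of the test's F statistic. DESeq2 1.42.0 was an alternative. Symbols and positions came from GENCODE 44 on GRCh37, in which 94.7% of 36595 transcript names matched. Density ratios on the log2 scale used a pseudocount of 0.5. The fits were tested on simulated data. Named rows were those with the 10 highest and 10 lowest 3′ UTR changes and the called relative changes with non-overlapping libraries, the 4 smallest p where none passed, the 8 longest, the 8 most abundant, up to 4 of each gene list by reads, and those beside the limits. The members, lists and words were chosen with earlier results of these data known. Some genes that this rule would name are not reported here. The closing section gives the alternatives.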

Additional observations from a re-analysis of the deposited data

How the results depend on the processing

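No called value changed sign, but medians near 0 did. Apart from leaving out a library, 211 values kept their call or size, 8 became weaker, 5 stronger and 2 moved. In siTARG1, a fit of only the 4 siRNA libraries called 14.7% of long 3′ UTRs higher and 0% relative to the coding sequence in both directions. Relative calls (higher, then lower) were 1.34% and 0.668% with DESeq2, 0.444% and 0.444% without the filter, and 0% and 0% among rows of 500 to 2000 3′ UTR reads, a band chosen after seeing the data. At 7500 bases or more the relative share higher was 0%, the median 3′ UTR change 0.00896 and the density ratio difference −0.0195. In RACK1-Mut the fit of its 4 libraries called 0.111% higher. With 1 library size for both regions the coding medians were −0.000301 (siTARG1) and −0.00739 (RACK1-Mut). The cause was not tested. Apart from DESeq2, the all-row shares of the other fits in this section are not given here. Their long-row shares thus cannot be set against the all-row shares of the main fit.

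Leaving out 1 library gave, in siTARG1, 16.1% to 26.1% of 3′ UTRs higher and 17.1% to 24.6% lower, 21.9% to 26.3% and 21.3% to 25.7% of coding sequences, and 0% to 0.223% of relative changes in each direction. Median changes ran from 0.0156 to 0.067 (3′ UTR) and 0.00017 to 0.0473 (coding), −0.0258 to 0.0259 (relative), and the density ratio difference from −0.0274 without siTARG1 replicate 2 to 0.08 without replicate 1. In RACK1-Mut the medians ran from −0.00781 to 0.0632 and −0.0282 to 0.0304.

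The labels do not say that equal replicate numbers mark a shared batch, so samples were not paired. Deviations of same-numbered samples over long 3′ UTRs had r = 0.682 (siRNA) and 0.182 (RACK1). With the replicate block 23.9% of 3′ UTRs were higher and 21.8% lower, and relative calls were 0% higher and 0.111% lower.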
